A study of Homo sapiens with 6 samples.

Results

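The 9 genes described here are the transcriptional coactivators YAP1 and WWTR1 (the gene of TAZ), their DNA-binding partner TEAD1, and 6 genes known as their targets. These are CYR61, CTGF and THBS1, which encode secreted matricellular proteins, ANKRD1, AMOTL2 and AXL. They were chosen by symbol, and all 9 were found among the 58676 gene IDs of the deposited table through GENCODE release 29, where CYR61 and CTGF carry the names that have since become CCN1 and CCN2. Of the 9, 8 passed a filter of 0.5 RPKM in at least 3 of 5 libraries, as did 15408 genes in all, and AXL did not. RPKM is the number of reads assigned to a gene, divided by the length of its exons and by the reads of the library.

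The Hippo pathway is a kinase cascade that restrains growth. Its last kinases, LATS1 and LATS2, phosphorylate YAP and TAZ and keep them in the cytoplasm, and when the cascade is low both enter the nucleus, bind TEAD factors and switch on genes such as CTGF, CYR61 and ANKRD1. In liver the pathway sets organ size, and its loss in mice leads to liver tumours. Matricellular proteins are secreted into the matrix, where they signal through integrins and other receptors rather than build structure. THBS1 and CTGF are also known targets of the miR-17-92 cluster, to which miR-19a belongs.

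The samples were libraries of a human cell line labelled HCC, grown in DMEM with serum, 3 of them labelled knockdown (titled sponge) and 3 labelled control. A sponge RNA offers decoy sites to a microRNA. The title of the series speaks of cells treated with miR-19a, while knockdown and control are used here as the samples are labelled. The name of the line and the vector are not given in the labels, nor whether replicates were separate cultures, so p-values here measure the spread between libraries, which may be technical.

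The compared libraries were knockdown replicates 1 and 3, with 9296308 and 15198231 reads, and control replicates 1, 2 and 3, with 9181567, 1948940 and 19605312 reads. Knockdown replicate 2 was left out because its values did not follow the gene IDs, with a Spearman correlation across genes of 0.0173 to 0.0191 with the other columns, against 0.822 to 0.887 among those 5. With 2 libraries against 3, an exact permutation test of a single gene cannot go below p = 0.1. All 8 hepatocyte markers passed the filter, and their summed level was 1385 and 1432 RPKM in knockdown and 1218 to 1585 RPKM in control. Within that list both knockdown libraries were above all controls for TF and SERPINA1 (log2 differences 0.43 and 0.54) and below them for APOB (-0.88). Of 8 fibroblast and stellate markers 4 passed, with sums of 68.4 to 72.5 RPKM in knockdown and 63.9 to 83.7 RPKM in control, most of it LUM, while THY1 was listed at 0. COL1A1 and COL1A2 were above all controls (log2 differences 0.66 and 0.51) and PDGFRA below them (log2 difference -0.56). Of 6 endothelial markers 1 passed, PECAM1, which was below all controls (log2 difference -0.36). The endothelial sums were 0.406 to 0.413 RPKM in knockdown and 0.532 to 0.760 RPKM in control. Of 6 blood and immune markers 3 passed, at 46.3 to 52.4 RPKM in knockdown and 44.3 to 51.3 RPKM in control, with CD3D above all controls (log2 difference 0.63). Whether other cell types have a part in any difference was not tested.

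The sequences of the microRNA and of its matches are shown because the series concerns miR-19a and 3 of the 9 genes hold a match. miR-19a and miR-19b, which differ at 1 base of 23, share the seed that pairs with messenger RNAs (bases 2 to 8, in capitals). The mature sequences below are from RefSeq (GRCh38.p14), and the mature miR-19a-3p of MIR19A lies at chr13:91350939-91350961 on the plus strand.
hsa-miR-19a-3p: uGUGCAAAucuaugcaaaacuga
hsa-miR-19b-3p: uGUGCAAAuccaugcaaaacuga

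A match to the seed, TTTGCAC, was present once each in the longest annotated 3′ UTR of THBS1, CTGF and TEAD1 and in none of the other 6, while 13.6% of 19115 coding genes held it. The UTRs searched were 4097 bases long for THBS1, 1088 for CTGF and 7261 for TEAD1, against a median of 1104 over all coding genes. Longer UTRs hold more matches of any kind, and a match is a run of letters, not a binding site shown by experiment. The lines below give 30 bases around each match (GENCODE 29, GRCh38, transcript strand), at chr15:39597217-39597246 plus for THBS1, chr6:131948207-131948236 minus for CTGF and chr11:12940276-12940305 plus for TEAD1, with the match in capitals. In THBS1 the match is followed by an A, the form that also fits the base opposite the first position of the microRNA.
THBS1: tatttttatataatgTTTGCACactgaatt
CTGF: accaaaagttacatgTTTGCACctttctag
TEAD1: tctgcagagctgtccTTTGCACtgtaggag

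Promoters are shown for the letters that TEAD factors are known to bind, CATTCC on one strand or GGAATG on the other. RefSeq's table (GRCh38.p14) held 10 promoters of 7 of the 9 genes, and the 250 bases before the start of each were searched. The motif was found in 6 of these 10, belonging to 6 of the 7 genes, against 11.9% of 35116 promoters. CTGF held it 3 times, at -169, -104 and -95 relative to the start (first base of each match), as did 0.0826% of all promoters, counting 3 or more. ANKRD1 held it 2 times, at -220 and -128, against 0.940% of promoters with 2 or more. THBS1, AMOTL2, YAP1 and AXL each held it 1 time in a promoter, and neither promoter of WWTR1 held it. The AP-1 motif TGANTCA, the same on both strands, was found in 1 of the 10 promoters, that of ANKRD1, against 6.57% of all promoters. The CArG box, which SRF binds, was in none of the 10 and in 1.16% of all. No match of CATTCC overlapped another motif. Of the 7 genes searched, 5 were chosen as known targets and YAP1 and WWTR1 as the coactivators, so these counts are a description. The lines below give the 250 bases of 4 promoters with CATTCC or GGAATG in capitals, at chr6:131951373-131951622 minus for CTGF, chr10:90921088-90921337 minus for ANKRD1, chr15:39580829-39581078 plus for THBS1 and chr3:134374448-134374697 minus for AMOTL2.
CTGF: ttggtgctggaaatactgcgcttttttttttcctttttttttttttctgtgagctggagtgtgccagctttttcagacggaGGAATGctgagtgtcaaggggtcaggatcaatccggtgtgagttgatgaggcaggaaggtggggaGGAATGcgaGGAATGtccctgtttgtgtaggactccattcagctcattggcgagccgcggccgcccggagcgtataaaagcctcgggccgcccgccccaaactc
ANKRD1: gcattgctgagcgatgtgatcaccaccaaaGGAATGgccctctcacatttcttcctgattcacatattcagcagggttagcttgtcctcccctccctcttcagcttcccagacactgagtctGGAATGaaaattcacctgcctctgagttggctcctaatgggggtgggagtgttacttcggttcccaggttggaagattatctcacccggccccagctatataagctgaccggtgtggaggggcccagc
THBS1: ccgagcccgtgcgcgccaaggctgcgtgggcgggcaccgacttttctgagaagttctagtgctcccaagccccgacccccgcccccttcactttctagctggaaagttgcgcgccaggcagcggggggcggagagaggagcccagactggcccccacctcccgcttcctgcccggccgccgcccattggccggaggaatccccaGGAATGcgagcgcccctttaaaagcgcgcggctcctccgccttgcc
AMOTL2: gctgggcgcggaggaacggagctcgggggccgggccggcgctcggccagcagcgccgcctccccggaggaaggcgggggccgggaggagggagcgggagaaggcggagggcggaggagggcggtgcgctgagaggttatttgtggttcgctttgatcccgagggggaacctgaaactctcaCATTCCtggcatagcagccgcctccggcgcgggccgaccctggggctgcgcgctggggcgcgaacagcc

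CTGF and CYR61 were among the highest transcripts of these cells and THBS1 stood lower. For each of these 3 matricellular genes both knockdown libraries lay below all 3 controls, as for 13.6% of all genes tested. CTGF ranked 232 and 254 among all gene IDs by RPKM in knockdown and 155 to 187 in control. CYR61 ranked 344 and 371 in knockdown and 236 to 296 in control. THBS1 ranked 880 and 1420 in knockdown and 533 to 796 in control. None of the differences passed the adjusted threshold.

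THBS1 (ENSG00000137801, chromosome 15 from 39581079 to 39599466 of GRCh38) encodes thrombospondin-1, an inhibitor of angiogenesis that also activates latent TGF-beta. It was at 48.9 and 31.6 RPKM in knockdown replicates 1 and 3, and at 55.9, 84.1 and 62.4 RPKM in control replicates 1, 2 and 3. The groups did not overlap, with knockdown replicate 3 the lowest library and control replicate 2 the highest. The means were 40.2 ± 12.2 RPKM in knockdown (SD, n = 2) and 67.5 ± 14.8 RPKM in control (SD, n = 3), so that the knockdown mean was 59.6% of the control mean. The log2 difference was -0.75 (SE 0.27), with a limma adjusted p = 0.71. Leaving out knockdown replicate 3 gave -0.44, and leaving out knockdown replicate 1 gave -1.06. THBS1 rested on 1501 to 11208 reads in each library.

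CTGF (ENSG00000118523, chromosome 6 from 131948176 to 131951373) encodes a promoter of fibrosis and matrix production. It was at 160.1 and 161.0 RPKM in knockdown replicates 1 and 3, and at 212.6, 239.5 and 169.0 RPKM in control replicates 1, 2 and 3. The knockdown libraries were nearly equal and just under control replicate 3, while the other controls were well above. The knockdown mean was 77.6% of the control mean, at 160.6 ± 0.605 RPKM (SD, n = 2) and 207.0 ± 35.6 RPKM (SD, n = 3). The log2 difference was -0.35 (SE 0.21, limma adjusted p = 0.724), while leaving out control replicate 2 gave -0.24 and leaving out control replicate 3 gave -0.49.

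CYR61 (ENSG00000142871, chromosome 1 from 85580761 to 85583962) encodes an immediate-early protein that acts on integrins in adhesion and wound repair. It was at 113.0 and 120.7 RPKM in knockdown replicates 1 and 3, and at 166.6, 143.8 and 140.3 RPKM in control replicates 1, 2 and 3. The gap between the groups was wider than the gap between the knockdown libraries, as it was for CTGF. The knockdown mean was 77.8% of the control mean, and the log2 difference was -0.36 (SE 0.16, limma adjusted p = 0.71). It stayed between -0.41 and -0.28 when each library was left out, the narrowest such range among the 8 genes tested. The ratio of CTGF to CYR61 in RPKM was 1.42 and 1.33 in knockdown and 1.28, 1.67 and 1.20 in control, so that the ratio overlapped between the groups.

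**Figure D1:**
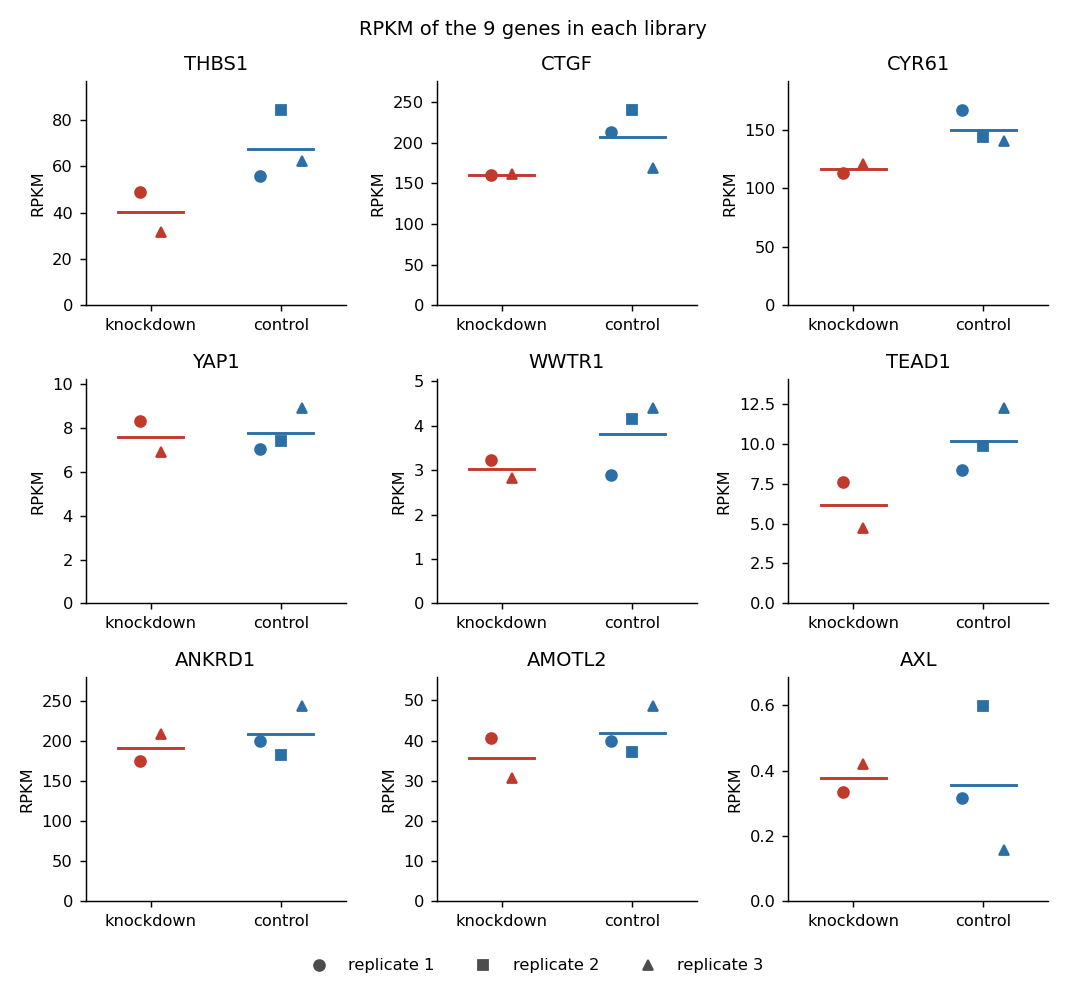
RPKM of each of the 9 genes (vertical axis from 0) in the 2 knockdown libraries (red, left) and the 3 control libraries (blue, right), with marker shape for the replicate number and a line at the group mean. For THBS1, CTGF, CYR61 and TEAD1 both knockdown libraries lie below all 3 controls, and for the other 5 genes the groups overlap.

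TEAD1 showed separated groups, while the coactivators YAP1 and WWTR1 did not. YAP1 (ENSG00000137693, chromosome 11 from 102110461 to 102233423) was at 8.30 and 6.91 RPKM in knockdown replicates 1 and 3, and at 7.02, 7.42 and 8.90 RPKM in control replicates 1, 2 and 3. The knockdown values lay within or next to the control range. The log2 difference was -0.03 (SE 0.18, limma adjusted p = 0.97), and it was 0.07 without control replicate 3 and 0.10 without knockdown replicate 3. WWTR1 (ENSG00000018408, chromosome 3 from 149517235 to 149736714) was at 3.22 and 2.83 RPKM in knockdown, and at 2.89, 4.15 and 4.39 RPKM in control. Control replicate 1 sat between the knockdown libraries, and the log2 difference was -0.27 (SE 0.23, limma adjusted p = 0.775). Leaving out control replicate 1 gave -0.44 and leaving out control replicate 3 gave -0.17, and voom with sample weights gave -0.09. YAP1 made up 72.0% and 70.9% of the summed RPKM of both coactivators in knockdown, and 70.9%, 64.1% and 67.0% in control.

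TEAD1 (ENSG00000187079, chromosome 11 from 12674591 to 12944483) was at 7.63 and 4.74 RPKM in knockdown replicates 1 and 3, and at 8.37, 9.83 and 12.2 RPKM in control replicates 1, 2 and 3. Knockdown replicate 3 was the lowest library, and knockdown replicate 1 lay close under control replicate 1. The means were 6.18 ± 2.05 RPKM in knockdown (SD, n = 2) and 10.1 ± 1.94 RPKM in control (SD, n = 3). The log2 difference was -0.69 (SE 0.27), with a limma adjusted p = 0.71, while leaving out knockdown replicate 3 gave -0.37 and leaving out knockdown replicate 1 gave -1.01.

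The 4 TEAD factors bind the same DNA letters, and TEAD2 had the highest RPKM of them in all 5 libraries. TEAD2 was at 24.9 and 25.8 RPKM in knockdown and 23.7, 19.3 and 22.6 RPKM in control, above all controls in both knockdown libraries. TEAD4 was at 5.40 and 5.44 RPKM in knockdown and 7.57, 7.001 and 8.26 RPKM in control, below all controls. TEAD3 overlapped, at 13.98 and 13.5 RPKM in knockdown and 14.9, 13.3 and 16.8 RPKM in control. As a share of the summed TEAD level, TEAD1 was 14.7% and 9.58% in knockdown and 15.3%, 19.9% and 20.4% in control, and TEAD2 was 47.9% and 52.1% in knockdown and 43.4%, 39.0% and 37.7% in control. The sum itself overlapped, at 51.9 and 49.4 RPKM in knockdown and 54.5, 49.4 and 59.8 RPKM in control. The log2 differences were 0.21 (SE 0.15) for TEAD2, -0.12 for TEAD3 and -0.45 (SE 0.16) for TEAD4, and the adjusted p in limma was 0.71 or above for each. With the length and GC trend removed they were 0.07, -0.28 and -0.66 for TEAD2, TEAD3 and TEAD4.

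Of the remaining target genes, none showed separated groups. ANKRD1 (ENSG00000148677, chromosome 10 from 90912096 to 90921276), an ankyrin repeat protein of muscle and stressed cells, was at 174.3 and 208.5 RPKM in knockdown replicates 1 and 3, and at 199.1, 182.5 and 242.9 RPKM in control replicates 1, 2 and 3. It ranked 206 and 194 among all gene IDs in knockdown and 112 to 211 in control, and the log2 difference was -0.12 (SE 0.20, limma adjusted p = 0.89). It was 0.0125 without knockdown replicate 1, 0.0001 without control replicate 3, -0.24 without knockdown replicate 3 and -0.21 without control replicate 2. AMOTL2 (ENSG00000114019, chromosome 3 from 134355874 to 134375479), an angiomotin that holds YAP in the cytoplasm, was at 40.6 and 30.6 RPKM in knockdown, and at 40.0, 37.1 and 48.6 RPKM in control. Knockdown replicate 1 lay within the control range and knockdown replicate 3 below it, and the log2 difference was -0.24 (SE 0.20, limma adjusted p = 0.78). It was -0.03 without knockdown replicate 3, -0.44 without knockdown replicate 1 and -0.13 without control replicate 3. AMOTL2 was the main angiomotin, at 94.3% and 95.4% of the family's RPKM in knockdown and 94.9%, 91.8% and 95.3% in control.

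AXL (ENSG00000167601, chromosome 19 from 41219203 to 41261766), a receptor tyrosine kinase for the ligand GAS6, was near the bottom of the measured range. It was at 0.334 and 0.421 RPKM in knockdown replicates 1 and 3, on 16 and 33 reads, and at 0.317, 0.597 and 0.158 RPKM in control replicates 1, 2 and 3, on 15, 6 and 16 reads. The knockdown values lay inside the control range. It did not pass the filter, and in the fit without a filter its log2 difference was 0.06 (SE 0.31, limma adjusted p = 0.953).

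Taken as a list, all 8 genes tested had a log2 difference below 0, with a median of -0.31, beside a median of 0.00 (-0.0002) and 7707 of 15408 below 0 over all genes tested. None passed an adjusted p under 0.05, as in 0% of all genes tested by limma, and voom on the recovered reads also called none of them. At an unadjusted p under 0.05, limma gave 2 of the 8 as lower (THBS1 and TEAD1) and 0 as higher, where this held for 2.54% of all genes tested as lower and 3.80% as higher. Voom gave the same counts for the 8, with 5.71% of all genes lower and 4.86% higher. Both knockdown libraries lay below all controls for 4 of the 8, where this held for 13.6% of all genes tested, and above them for 0 of the 8, against 14.3%. The genes are not replicates of the condition, and they were chosen with results of these data known.

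**Figure D2:**
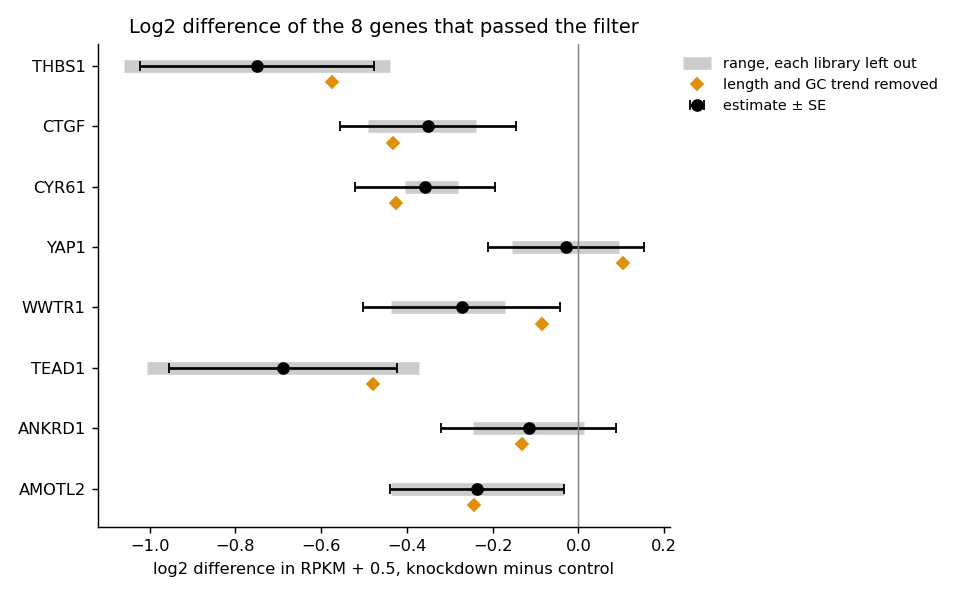
Log2 difference in RPKM + 0.5, knockdown minus control (horizontal axis), of the 8 tested genes, with the limma estimate and its SE (black), the range when each of the 5 libraries is left out (grey) and the value with each library's length and GC trend removed (orange). THBS1 and TEAD1 have the largest differences, at -0.75 and -0.69, and the widest grey ranges.

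The log2 difference varied with exon length over all genes. Among 10 bins of nearly equal size by exon length, the median log2 difference was 0.19 in bin 3, which holds CTGF and ANKRD1, and 0.12 in bin 4, which holds CYR61. It was -0.09 in bin 9, which holds THBS1 and WWTR1, and -0.19 in bin 10, the longest, which holds TEAD1. In bin 10 the median against the control mean was -0.08 for knockdown replicate 1 and -0.30 for knockdown replicate 3. After a loess trend on length and GC was subtracted per library, the log2 difference was -0.57 for THBS1, -0.48 for TEAD1 and -0.09 for WWTR1, all smaller in size than before. It was -0.43 for CTGF and -0.42 for CYR61, both larger in size, and the median of the 8 was -0.33.

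**Figure D3:**
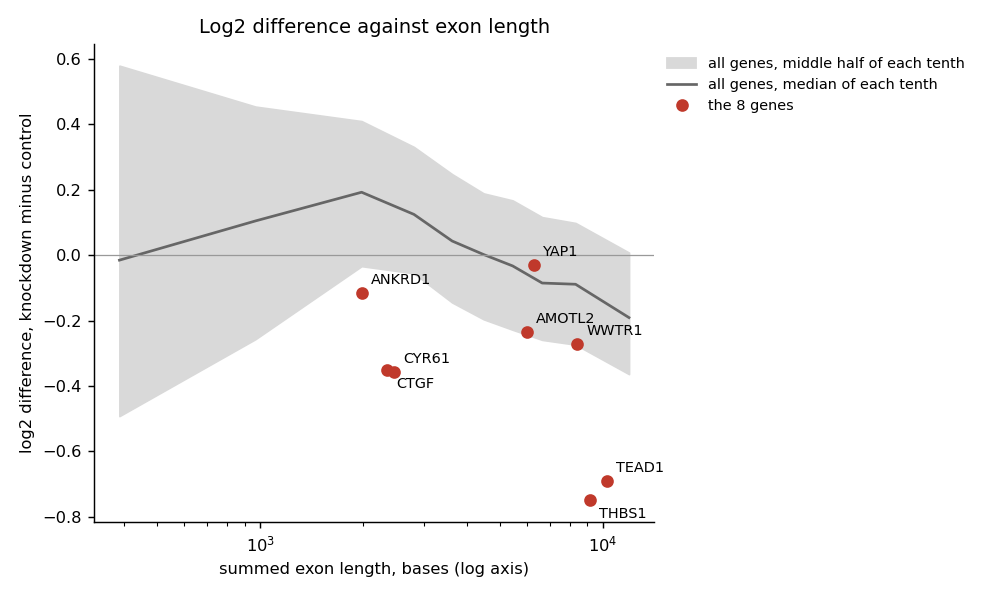
Log2 difference, knockdown minus control (vertical axis), against summed exon length in bases (log axis), for the 8 tested genes (red) and for all genes tested in 10 bins by length (grey line, the bin median; band, its middle quartiles). The bin median passes from 0.19 in bin 3 to -0.19 in bin 10, and CTGF and CYR61, at -0.35 and -0.36, lie in bins whose medians are above 0.

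Most tested relatives of the matricellular genes had values above 0, and none passed the test. Of 14 other CCN, thrombospondin and matricellular genes, 8 were tested, of which 7 had values above 0 and 1 did not (median 0.37). Of the 7, NOV, COMP, SPARC and TNC had only 1, 2, 4 and 12 reads in control replicate 2. Of the 8 tested, 0 passed an adjusted p under 0.05. At an unadjusted p under 0.05 in limma 2 were higher, beside 3.80% of all genes tested. In both knockdown libraries 5 lay above all controls, beside 14.3% of all genes tested, and 1 below, beside 13.6%. THBS3, a thrombospondin of cartilage and bone, was at 3.96 and 4.17 RPKM in knockdown and 2.50, 3.22 and 2.56 RPKM in control. COMP, the cartilage thrombospondin, was at 1.21 and 1.61 RPKM in knockdown and 0.808, 0.331 and 0.773 RPKM in control. Both were above all controls in both knockdown libraries, with log2 differences of 0.49 (SE 0.19) and 0.77 (SE 0.30). With the length and GC trend removed these were 0.45 for THBS3 and 0.53 for COMP, and the median of the 8 tested was 0.41. THBS4 was the exception, at 4.02 and 4.07 RPKM in knockdown and 5.32, 5.35 and 4.91 RPKM in control (log2 difference -0.32, SE 0.15). THBS1 thus made up 84.2% and 76.2% of the summed thrombospondin level in knockdown and 86.6%, 90.4% and 88.3% in control. SPARC, a collagen-binding matricellular protein, was at 1.09 RPKM in both knockdown libraries and 0.744, 0.425 and 0.707 RPKM in control. NOV (now CCN3) was the only other CCN gene past the filter, at 0.765 and 0.935 RPKM in knockdown and 0.815, 0.192 and 0.782 RPKM in control. WISP1, WISP2 and WISP3 were each at 0.476 RPKM or below in all 5 libraries. WISP2, at 0.238 and 0.476 RPKM in knockdown and 0.175, 0 and 0.133 RPKM in control, was above all controls, and THBS2 was listed at 0 in all but control replicate 3.

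**Figure D4:**
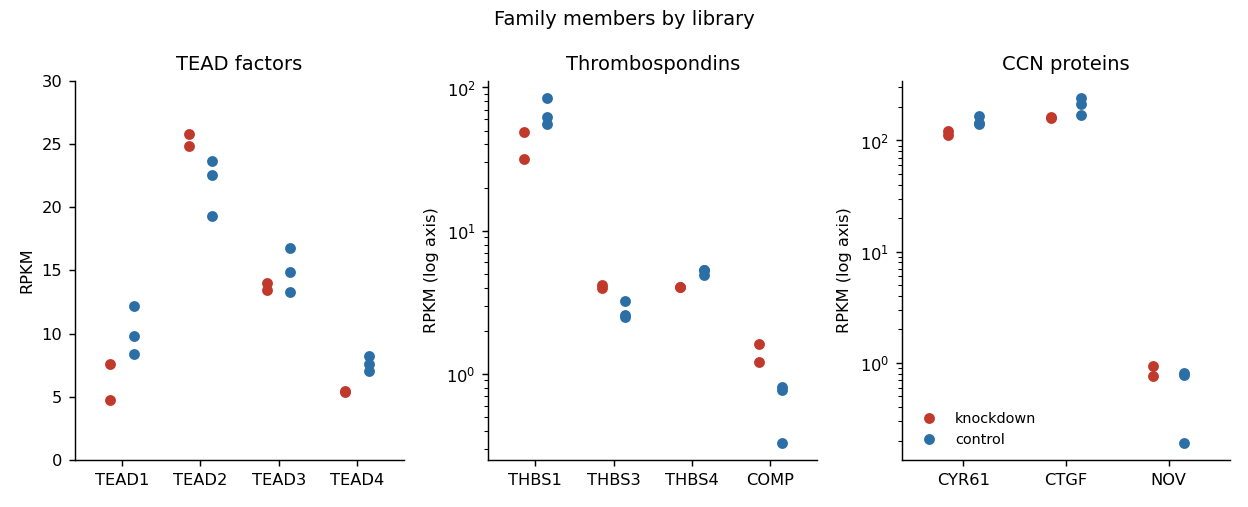
RPKM of the TEAD factors (linear axis from 0) and of the thrombospondins and CCN genes past the filter (log axes) in each library, with the 2 knockdown libraries in red to the left of the 3 controls in blue. Of the genes shown, TEAD1, TEAD4, THBS1, THBS4, CYR61 and CTGF are lower in both knockdown libraries than in all controls, and TEAD2, THBS3 and COMP are higher.

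The kinases upstream of YAP were near or below their control level. Of 18 genes of the Hippo kinases and their partners, 17 were tested, with 3 above 0 and 14 below, a median of -0.21, and none past the adjusted threshold or an unadjusted p of 0.05 in limma (voom gave 3 of 17 as lower at the latter, beside 5.71% of all genes tested). With the length and GC trend removed the median was -0.01. TAOK1, which activates the core kinases, was at 6.63 and 4.43 RPKM in knockdown and 6.79, 8.76 and 10.5 RPKM in control (log2 difference -0.61, SE 0.26, and -0.36 with the length and GC trend removed). LATS1 was at 3.17 and 2.28 RPKM in knockdown and 3.35, 3.86 and 4.21 RPKM in control (log2 difference -0.42, SE 0.21, and -0.23 with that trend removed), and TAOK2 differed by -0.19 (SE 0.15). WWC1, the scaffold KIBRA, was above all controls at 49.2 and 41.0 RPKM in knockdown, against 39.9, 39.3 and 40.1 RPKM in control (log2 difference 0.17, SE 0.15, and 0.27 with that trend removed).

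Of the TEAD2 to TEAD4 and VGLL list, 5 of 6 genes were tested, with 2 above 0 and 3 below, and 0 passed the adjusted threshold. The median was -0.12, or -0.28 with the length and GC trend removed. At an unadjusted p under 0.05, limma and voom each gave 2 of the 5 as lower, beside 2.54% and 5.71% of all genes tested. VGLL3, a cofactor that competes with YAP for TEAD, was at 85.9 and 56.4 RPKM in knockdown and 89.6, 152.8 and 136.7 RPKM in control, with a log2 difference of -0.82 (SE 0.31, limma adjusted p = 0.71). Both knockdown libraries lay below all controls, knockdown replicate 1 only just. VGLL3 has 12714 exon bases, and its difference was -0.59 with the length and GC trend removed. VGLL1 was listed at 0 in all 5 libraries.

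Further YAP/TAZ targets lay on both sides of 0. Of 17 genes of a conserved target signature, less the genes already described, 15 were tested, with 5 above 0 and 10 below and a median of -0.07 (-0.02 with the length and GC trend removed). By limma 0 passed the adjusted threshold. The unadjusted threshold of 0.05 was passed by 1 gene upward and by 0 downward, beside 3.80% and 2.54% of all genes tested. GADD45A, a stress-induced growth arrest gene, was at 29.5 and 36.1 RPKM in knockdown and 24.2, 22.3 and 24.5 RPKM in control (log2 difference 0.46, SE 0.16, and 0.37 with that trend removed). F3, which encodes tissue factor, was at 2.99 and 3.00 RPKM in knockdown and 1.86, 1.78 and 2.38 RPKM in control (log2 difference 0.49, SE 0.20, and 0.48 with that trend removed). Both lay above all controls, while ASAP1, a regulator of ARF GTPases, lay below them with a log2 difference of -0.42 (SE 0.21), or -0.25 with that trend removed. LATS2 and PTPN14 belong to this list and to the kinase list.

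Receptors and ligands of these proteins held 3 genes above and 9 below 0. Of 15 genes, 12 were tested, the median was -0.25 (-0.13 with the length and GC trend removed), and 0 passed the adjusted threshold. All 3 above 0 had an unadjusted p under 0.05 in limma, beside 3.80% of all genes tested as higher. So did 1 below 0, beside 2.54% as lower. SDC4, syndecan-4, a heparan sulfate proteoglycan of focal adhesions, was at 179.3 and 193.8 RPKM in knockdown and 98.0, 84.2 and 116.6 RPKM in control. Its log2 difference was 0.91 (SE 0.19, limma adjusted p = 0.71), or 0.86 with that trend removed. CD47, a receptor of THBS1, was at 4.58 and 5.18 RPKM in knockdown and 2.82, 2.62 and 3.47 RPKM in control (log2 difference 0.64, SE 0.19, and 0.83 with that trend removed). ITGA5, the integrin alpha chain of the fibronectin receptor, was at 30.04 and 25.05 RPKM in knockdown and 16.4, 15.4 and 21.7 RPKM in control (log2 difference 0.62, SE 0.20, and 0.67 with that trend removed). In each of these 3 both knockdown libraries lay above all controls, beside 14.3% of all genes tested. Of the 12 tested, 4 lay below all controls in both, beside 13.6% of all genes tested. LRP6, a Wnt coreceptor that CTGF binds, was at 5.95 and 3.55 RPKM in knockdown and 7.07, 9.83 and 8.16 RPKM in control (log2 difference -0.78, SE 0.27, and -0.57 with the length and GC trend removed).

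**Figure D5:**
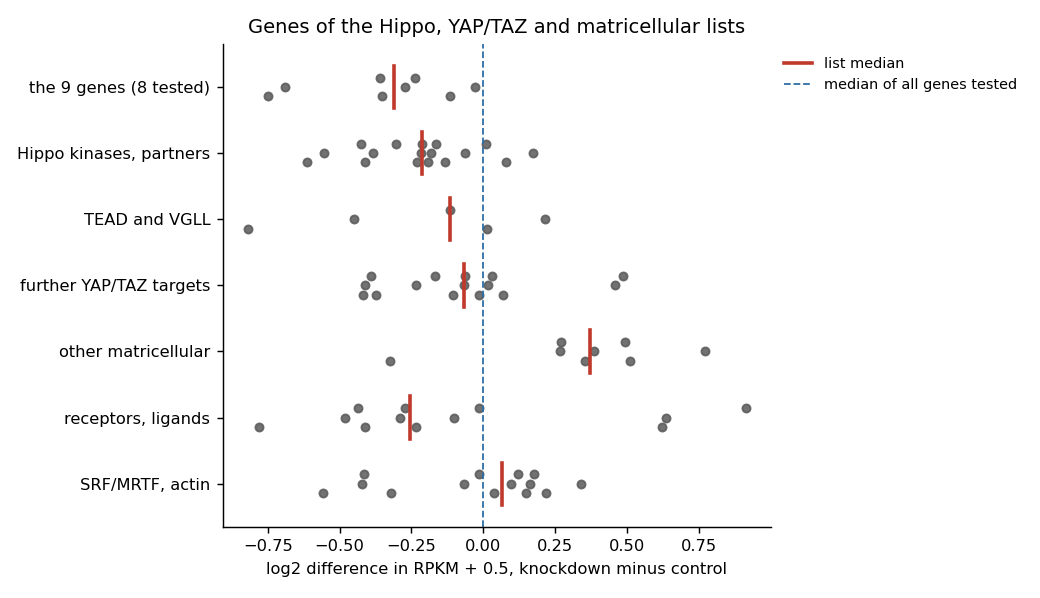
Log2 difference in RPKM + 0.5, knockdown minus control (horizontal axis), of each tested gene (dots) in the 9-gene list and in 6 lists of related genes, with the list median (red) and the median of all genes tested (dashed). The 9-gene list has a median of -0.31 and the other matricellular genes, some of them with few reads, one of 0.37.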

How the data were processed

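Total RNA of 6 libraries was sequenced, and the authors deposited 1 table of RPKM values per gene and library, per the file name and the labels. HISAT2 and GRCh38 are named in the submitters' processing notes. The sources used here name no read counter, annotation, filter or strand setting, so reads of antisense and overlapping genes cannot be separated. All 58676 gene IDs were found in GENCODE release 29. In 5 libraries, values above 0 times exon length came out as whole reads in 100% of cases (tolerance 0.002 of a read). Knockdown replicate 2 was left out, its values being out of step with the gene IDs.

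The fit was limma 3.58.1 in R 4.3.3 (lmFit, eBayes with trend, two-sided) on log2(RPKM + 0.5) over genes reaching 0.5 RPKM in 3 or more of 5 libraries, with Benjamini-Hochberg adjustment over all of them and a threshold of 0.05. The code was tested on simulated data. Fold changes on this scale understate those of low genes. Alternatives were other pseudocounts, filters and scalings, no trend, the replicate number as a block, each library left out, all 6 columns, and voom with or without sample weights on the recovered reads. A further alternative, subtracting a loess trend (span 0.3) on length and GC per library, was chosen after seeing the data. The genes, the gene lists and the tests were chosen with earlier results of these data known. All 9 genes are named, their TEAD, CCN and thrombospondin relatives by level, and from each list up to 4 tested genes of smallest unadjusted p with separated groups. Other genes named from lists were chosen after their values were seen.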

Additional observations from a re-analysis of the deposited data

How the results depend on the processing

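The cause of each shift below was not tested. Over 17 alternatives, 128 of 136 log2 differences of the 8 genes kept their direction and their side of the threshold. The other 8 changed sign, all near 0. On the 5 libraries no adjusted p of these genes in limma or voom was under 0.28. The 17 include the fit on all 6 columns, whose knockdown replicate 2 does not follow the gene IDs, so that fit is no check. YAP1, at -0.03, was 0.0301 with quantile normalization, 0.0422 with voom and sample weights, 0.10 with the length and GC trend removed, 0.13 with all 6 columns, and -0.15 to 0.10 when each library was left out. ANKRD1, at -0.12, was -0.24 to 0.0125 when each library was left out (0.0001 without control replicate 3). The median of the 8 genes was -0.35 to -0.28 when each library was left out, and -2.39 with all 6 columns, where the median of all genes was -0.91. The count of genes past an adjusted p of 0.05 was 0, with 4 by voom with sample weights and 40 with the replicate block (33 higher, 7 lower, at 1 residual degree of freedom), none of the 8 among them. The labels do not say whether libraries of the same number were paired. Their deviations from the group means correlated at -0.168 (replicate 1) and 0.018 (replicate 3) across genes. With 2 knockdown libraries the knockdown deviations mirror each other, so these values cannot decide it. With the replicate block THBS1 was at -0.58 and TEAD1 at -0.70, the same as without control replicate 2. That library has no knockdown library of its number in the fit, so the block gives the same estimates as leaving it out. AXL rested on 6 to 33 reads a library, and control replicate 2 had the lowest depth.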

Other observations

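Genes of the actin cytoskeleton, which share many regulators with YAP targets through SRF and its MRTF cofactors, lay on both sides of 0. Of 17 listed, 14 were tested, with 8 above 0 and 6 below and a median of 0.07 (-0.04 with the length and GC trend removed), and 0 passed the adjusted threshold. MRTFB was at 0.845 to 1.05 RPKM in knockdown and 1.23 to 2.17 RPKM in control, a log2 difference of -0.56 (SE 0.27, and -0.30 with the length and GC trend removed), while MRTFA differed by 0.22 (SE 0.15). SRF was at 8.76 and 8.78 RPKM in knockdown and 11.2, 13.7 and 8.90 RPKM in control. FLNA, filamin A, differed by -0.42 (SE 0.23), and ACTB by -0.02. Among the receptors related to AXL, TYRO3 was the most abundant, at 6.27 and 5.75 RPKM in knockdown and 7.86, 6.94 and 6.72 RPKM in control, below all controls in both knockdown libraries.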
